A study of Mus musculus with 69 samples.

Results

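The chloride transporters Slc12a2 and Slc12a5, the WNK and SPAK/OSR1 kinases Wnk1, Wnk2, Wnk3, Stk39 and Oxsr1, and the chloride channel Clcn2 were followed across cell class, genotype and cortical area. The members were the rows of the table whose gene identifiers carry these symbols, and all 8 were found among 17634 genes. The rule reads symbols, not values. All 8 passed the filter on low counts in every comparison.

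The data were 69 libraries of RNA bound to HA-tagged ribosomes, immunoprecipitated from primary visual cortex (V1) or primary somatosensory cortex (S1) of mice aged 70 to 100 days. All mice carried Rpl22HA/HA, which lets Cre recombination put an HA tag on the ribosomal protein RPL22, and either PV-Cre, which acts in parvalbumin (PV) interneurons, or Camk2a-Cre, which acts mainly in excitatory pyramidal neurons. Mice were wild type (WT) or Fmr1 knockout (KO), the mouse model of fragile X syndrome, which lacks the RNA-binding protein FMRP. There were 10 libraries in each of PV WT V1, PV KO V1, PV WT S1 and PV KO S1, 8 in Camk2a WT V1, 6 in Camk2a KO V1, 8 in Camk2a WT S1 and 7 in Camk2a KO S1. Each PV group held 5 libraries of females and 5 of males. In Camk2a, WT V1 and WT S1 each held 6 of females and 2 of males. Camk2a KO V1 held 4 and 2, and KO S1 held 4 and 3. Values come from ribosome-bound RNA of a mixed precipitate, so fewer cells of a type and less RNA per cell cannot be told apart.

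A neuron's response to GABA depends on its internal chloride. The cotransporter NKCC1 (Slc12a2) brings chloride in together with sodium and potassium, and KCC2 (Slc12a5) takes it out with potassium, so in mature cortical neurons KCC2 keeps chloride low and GABA hyperpolarising or shunting. WNK kinases sense chloride and osmotic state, and phosphorylate SPAK (Stk39) and OSR1 (Oxsr1), which in turn phosphorylate the cotransporters, activating NKCC1 and inhibiting KCC2. ClC-2 (Clcn2) is a chloride channel opened by hyperpolarisation. The design allows the amount of these mRNAs on ribosomes to be compared between inhibitory and excitatory neurons, with and without FMRP.

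All 8 genes are annotated as protein coding in GENCODE release M21, whose mm10 coordinates are used. Slc12a5 lies on the plus strand at chr2:164960802-164999731 and Stk39 on the minus strand of the same chromosome at chr2:68210445-68472268. Wnk1 is at chr6:119923969-120038672, Wnk2 at chr13:49036303-49148014, Oxsr1 at chr9:119238432-119322427 and Clcn2 at chr16:20702964-20717746. Wnk3, at chrX:151198078-151320152, shares the X chromosome with Fmr1. Clcn2 overlaps Fam131a and Polr2h on the opposite strand, Wnk3 overlaps the antisense gene A230072E10Rik, and Wnk1 overlaps the pseudogene Gm16199 on the opposite strand. All 4 of these neighbours are in the table, and reads of such overlapping genes could not be told apart without strand information. The span of Oxsr1 overlaps the protein-coding gene Slc22a14 and the small nucleolar RNA gene Gm22729 on the same strand, neither of them in the table. For genes on the same strand, strand information would not help.

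Upstream sequence was read from RefSeq (GRCm38.p6) for 7 of the 8 members. Slc12a2 was left out beforehand and was not looked up. The 250 bases before the start are shown for Oxsr1, the single member called between genotypes below, and for Wnk3, a kinase higher in PV libraries. Both windows hold no annotated exon. Capitals mark matches on either strand to any of the motifs searched. These were the GC box with letters GGGCGG, the E-box with letters CACGTG and the cyclic AMP response element (CRE) with letters TGACGTCA. The other motifs were the TATA box, searched as TATAAA, the motif CCAAT, and the EGR site, searched as GCGTGGGCG.
Oxsr1: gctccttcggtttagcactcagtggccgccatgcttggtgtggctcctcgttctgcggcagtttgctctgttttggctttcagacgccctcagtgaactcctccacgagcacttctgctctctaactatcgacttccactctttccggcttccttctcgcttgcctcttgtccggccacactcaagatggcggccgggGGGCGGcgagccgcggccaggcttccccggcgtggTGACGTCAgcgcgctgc
Wnk3: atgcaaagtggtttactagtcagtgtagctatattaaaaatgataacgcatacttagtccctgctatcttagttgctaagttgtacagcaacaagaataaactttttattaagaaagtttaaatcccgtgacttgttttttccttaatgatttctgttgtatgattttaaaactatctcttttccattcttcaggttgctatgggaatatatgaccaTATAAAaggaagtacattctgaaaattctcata
The Oxsr1 window, chr9:119322428-119322677 on the minus strand, is 62.4% G and C and holds 21 CpG dinucleotides, a GC box and a CRE. Over 32851 mouse windows of the same length the median was 52.4% G and C, 32.7% held the GC box letters and 1.5% the CRE letters. The Wnk3 window, chrX:151197828-151198077 on the plus strand, is 30.4% G and C with 2 CpG dinucleotides and holds a TATA box, found in 12.4% of all windows. These matches describe letters only.

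Some libraries stood apart before any member was tested. Fmr1 was low in every KO library and its WT and KO ranges did not overlap in any class and area; the log2 fold change in Camk2a V1, for example, was -3.31. Among 12 PV interneuron markers all 12 were higher in PV than in Camk2a WT V1 libraries, and all 10 excitatory markers were lower. Camk2a animals C3 (KO), C18 and C19 (WT) carried more PV marker RNA, with a Pvalb level of 62.9 CPM in C18 and 55.8 CPM in C19 in V1 against 4.09 to 7.08 CPM in the other WT V1 libraries. CPM is the count scaled to a common library total after TMM normalization. A score of V1 against S1 genes used those that differed most between areas in PV libraries of animals other than P9, P22 and P24. The separation of those other libraries by area was thus built in. By this score P9, P22 and P24 lay toward the other area, for P24 in the V1 library only. Their V1 scores were -2.35, -3.28 and -2.33, against -1.22 to 0.266 for other PV V1 libraries. Between PV and Camk2a, leaving out C3, C18 and C19 changed no call of a member, and in WT V1 gave 0.89 for Wnk1, 0.61 for Stk39, 0.74 for Wnk3, 0.24 for Wnk2, -0.31 for Oxsr1, -0.71 for Clcn2 and -0.26 for Slc12a2 on the log2 scale. Values without P9, P22 and P24 stand beside the PV area differences. Leaving out animals that lie toward the other area can widen those differences by construction, so these values are no separate support.

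Slc12a5 was the highest of the members per kilobase of exon in all 8 groups, and Slc12a2 was the lowest. Mean Slc12a5 levels ran from 129 CPM per kb in PV KO V1 to 145 CPM per kb in PV WT S1, at the 98.4th to 98.7th percentile of all genes. Mean Slc12a2 levels ran from 1.22 CPM per kb in PV WT S1 to 1.97 CPM per kb in Camk2a KO V1, at the 40.0th to 45.9th percentile. The library ranges of Slc12a5 lay clear of those of the next member in every group.

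The kinases filled the middle of the order, and its details differed with the class. In PV WT V1, Wnk2 (25.2 CPM per kb) and Stk39 (23.9 CPM per kb) came next, with overlapping ranges and Wnk2 above Stk39 in 6 of 10 libraries. Wnk1 followed at 8.76 CPM per kb. Oxsr1 (4.93), Wnk3 (4.54) and Clcn2 (3.87 CPM per kb) formed a low run in which each neighbour overlapped the next. In Camk2a WT V1, Wnk2 (21.9 CPM per kb) lay above Stk39 (15.4 CPM per kb) in 8 of 8 libraries with no overlap. There Clcn2 (6.31) and Oxsr1 (6.13 CPM per kb) overlapped each other and both lay above Wnk1 (4.74) and Wnk3 (2.76 CPM per kb). Dividing by the longest transcript instead kept Slc12a5 first and Slc12a2 last in all 8 groups, but in PV WT V1 it put Stk39 (33.4) above Wnk2 (31.0 CPM per kb), and Clcn2 (5.91) above Oxsr1 (5.68 CPM per kb).

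**Figure D1:**
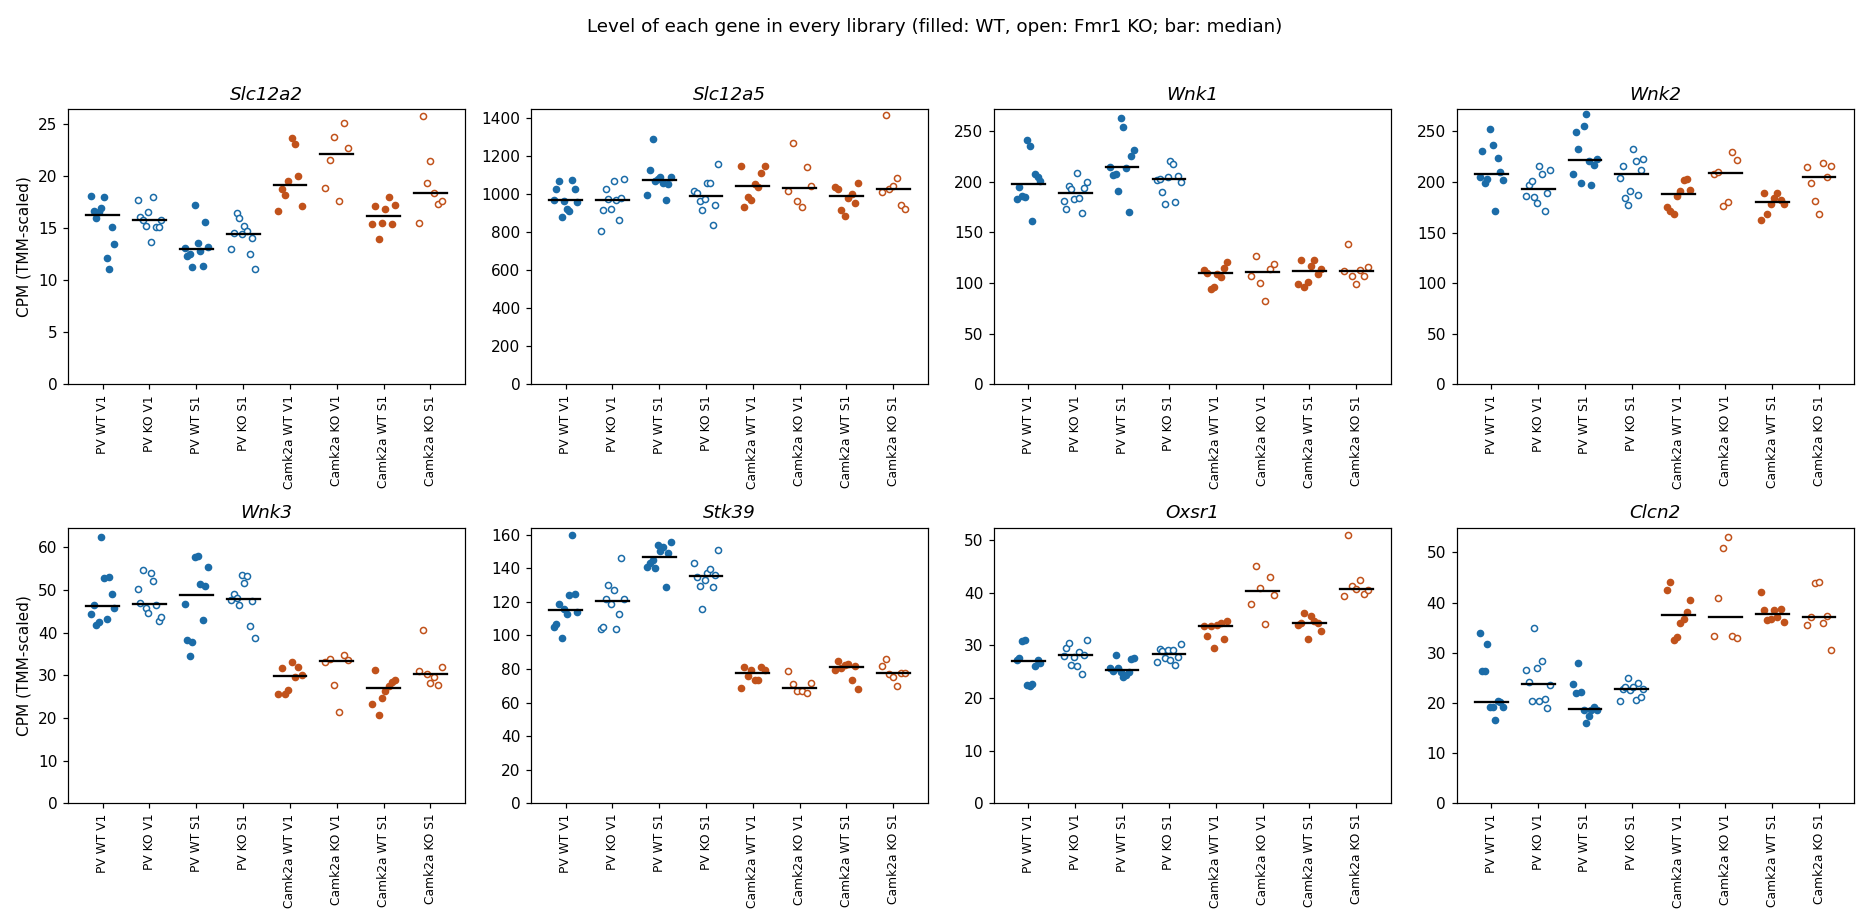
Level of each of the 8 genes (y axis, CPM after TMM scaling, from 0) in every library of the 8 groups (x axis); filled points are WT, open points Fmr1 KO, blue PV, orange Camk2a, and bars are group medians. Wnk1, Wnk3 and Stk39 sit higher in PV groups, Oxsr1 and Clcn2 higher in Camk2a groups, and Slc12a5 lies between 805 and 1415 CPM throughout, with Camk2a KO S1 animal C4 highest.

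Wnk1, Wnk3 and Stk39 were higher in PV libraries, and Oxsr1, Clcn2 and Slc12a2 were lower, in all 4 combinations of genotype and area. In WT V1, 7 of 8 members were called between PV and Camk2a libraries (4 higher in PV, 3 lower), where 77.3% of all genes tested were called (39.8% higher, 37.5% lower). In WT S1 all 8 were called (5 higher, 3 lower; 77.2% of all genes, 39.1% higher and 38.1% lower). In KO V1 and in KO S1, 6 of 8 were called (3 higher, 3 lower), against 74.3% of all genes (38.3% higher, 35.9% lower) and 77.7% (39.8% higher, 37.9% lower). The ranges of the libraries did not overlap for 3, 6, 4 and 4 members in WT V1, WT S1, KO V1 and KO S1, and for 42.5%, 45.5%, 44.8% and 47.9% of all genes. The median log2 fold change of the members was 0.09 in WT V1 and 0.26 in WT S1, against 0.03 and 0.02 over all genes; in KO it was -0.10 in V1 and -0.03 in S1, against 0.04 and 0.03. Called means that edgeR's quasi-likelihood test, with Benjamini-Hochberg adjustment over all genes tested, gave an adjusted p under 0.05, and single p-values come from it where no tool is named.

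Wnk1, the broadly expressed WNK kinase, had the largest fold of the members higher in PV in WT V1 and WT S1. Its level in WT V1 ran from 161 through a median of 198 to 241 CPM in 10 PV libraries and from 94.0 through 109.7 to 121 CPM in 8 Camk2a libraries. No PV library fell within the Camk2a range. On the log2 scale PV exceeded Camk2a by 0.93 (SE 0.072, adjusted p = 3.50e-10) in WT V1 and 1.01 (SE 0.076) in WT S1, about 1.91-fold and 2.01-fold. In KO mice it was 0.80 (SE 0.078) in V1 and 0.82 (SE 0.057) in S1, again without overlap, beside 0.78 (SE 0.076) and 0.79 (SE 0.043) for Stk39. Without C3, C18 and C19 the KO V1 values were 0.79 for Wnk1 and 0.83 for Stk39.

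Wnk3, a WNK kinase of the brain, followed the same order at a lower level. WT V1 libraries held 41.7 to 62.5 CPM in PV (median 46.1) and 25.5 to 33.0 CPM in Camk2a (median 29.8). The ranges were separate in WT V1, WT S1 and KO V1 and overlapped in KO S1, where the highest Camk2a library reached 40.6 CPM. PV libraries were higher by 0.75 on the log2 scale in WT V1 (SE 0.081, adjusted p = 6.24e-08), 0.85 in WT S1, 0.66 in KO V1 and 0.62 in KO S1.

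Stk39, which encodes SPAK, followed Wnk1 and Wnk3 in being higher in PV libraries. It ran from 129 through 147 to 156 CPM in PV WT S1 and from 68.2 through 81.4 to 84.7 CPM in Camk2a WT S1. The lowest PV library was well above the highest Camk2a library. This was a log2 difference of 0.88 (SE 0.049, adjusted p = 6.09e-13) in WT S1 and 0.61 (SE 0.068) in WT V1. In KO it was 0.78 in V1 and 0.79 in S1.

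Wnk2, a neuronal WNK kinase, differed between classes in WT and was not called in KO. PV WT S1 libraries held 197 to 267 CPM (median 222) and Camk2a WT S1 libraries 162 to 189 CPM (median 180.2), without overlap. PV was higher by 0.36 on the log2 scale in WT S1 (SE 0.060, adjusted p = 1.31e-05) and 0.25 (adjusted p = 0.00124) in WT V1. In KO it was 0.03 in S1 (adjusted p = 0.663) and -0.07 in V1 (adjusted p = 0.371). A direct test of whether the genotype effect on Wnk2 differed between classes, over both areas, did not call it (-0.25, SE 0.087, adjusted p = 0.211).

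Oxsr1, which encodes OSR1, the partner kinase of SPAK, went the other way. PV WT S1 libraries held 23.9 to 28.1 CPM (median 25.4) and Camk2a WT S1 libraries 31.2 to 36.1 CPM (median 34.2). The ranges were separate. PV over Camk2a gave a log2 value of -0.40 (SE 0.047, adjusted p = 9.85e-08) in WT S1, -0.29 in WT V1, -0.52 in KO V1 and -0.57 in KO S1.

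Clcn2 and Slc12a2 (chr18:57878678-57946821, plus strand) were also lower in PV libraries. Clcn2 ran from 20.3 through 22.8 to 24.9 CPM in PV KO S1 and from 30.6 through 37.2 to 44.1 CPM in Camk2a KO S1, without overlap, a log2 value of -0.73 (SE 0.064, adjusted p = 1.10e-09). It was -0.86 (SE 0.085, adjusted p = 6.87e-09) in WT S1, the lowest of the members there, -0.64 in WT V1, where ranges overlapped, and -0.71 in KO V1. Slc12a2 ran from 11.1 through 16.2 to 18.1 CPM in PV WT V1 and from 16.6 through 19.1 to 23.6 CPM in Camk2a WT V1. The ranges overlapped, and the log2 value was -0.27 (SE 0.089, adjusted p = 0.00885) in WT V1, -0.26 in WT S1 and -0.43 in KO V1 and KO S1.

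Slc12a5 was close to level between the classes. It ran from 876 through 965 to 1074 CPM in PV WT V1 and from 932 through 1043 to 1148 CPM in Camk2a WT V1, and their log2 difference, -0.07 (SE 0.055), was not called (adjusted p = 0.268). In WT S1 it was called, at 0.16 (SE 0.052, adjusted p = 0.00901), with overlapping ranges. In KO it was -0.14 (adjusted p = 0.0966) in V1 and -0.10 (adjusted p = 0.201) in S1.

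**Figure D2:**
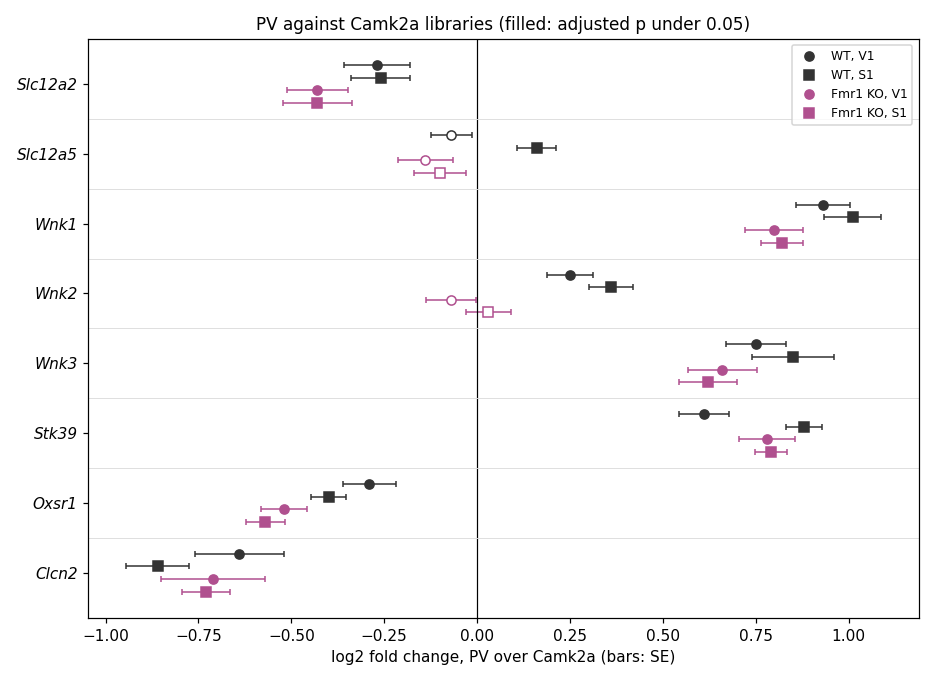
Log2 fold change of PV over Camk2a libraries (x axis) for the 8 genes (y axis) in WT (dark) and Fmr1 KO (purple), V1 (circles) and S1 (squares); bars are standard errors and filled symbols have an adjusted p under 0.05. Wnk1, Wnk3 and Stk39 lie to the right in all 4 comparisons and Slc12a2, Oxsr1 and Clcn2 to the left, with Wnk1 in WT S1 furthest right at 1.01.

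Glial RNA moved with class in these libraries. Summed astrocyte markers (10 genes) were 339 to 386 CPM in PV WT V1 and 135 to 170.5 CPM in Camk2a WT V1, and 8 of 10 were called higher in PV. Oligodendrocyte markers (10 genes) summed to 405 to 1007 CPM against 273 to 446 CPM, and 9 of 10 were called higher. Slc12a2, Wnk1 and Stk39 are also expressed by glia. The part of glial RNA in these class differences was not tested.

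Ratios within a library need no scaling between libraries, and are given here as descriptions. The Slc12a5 to Slc12a2 ratio, per kb, had medians of 94.2 in PV WT V1, 88.7 in PV KO V1, 121 in PV WT S1 and 100.3 in PV KO S1. In Camk2a libraries the medians were 76.1 in WT V1, 72.6 in KO V1, 88.9 in WT S1 and 79.8 in KO S1. Each KO median was below the WT median of its class and area, with overlapping ranges in all 4. The Stk39 to Oxsr1 ratio separated the classes completely: the lowest PV library had 3.45 and the highest Camk2a library 2.91. In Camk2a S1 the 7 KO libraries ran from 1.79 to 2.25 and the 8 WT libraries from 2.26 to 2.84. The gap there was narrow, between 2.25 in KO animal C3 and 2.26 in WT animal C24. In V1 the ratio ran from 1.65 to 2.26 in KO against 2.20 to 2.91 in WT. The share of gene pairs whose ratio separates classes or genotypes was not computed, so neither separation has a background. The longest transcript in place of merged exons moves these ratios by a constant, to a median of 69.5 for Slc12a5 to Slc12a2 and 5.84 for Stk39 to Oxsr1 in PV WT V1.

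**Figure D3:**
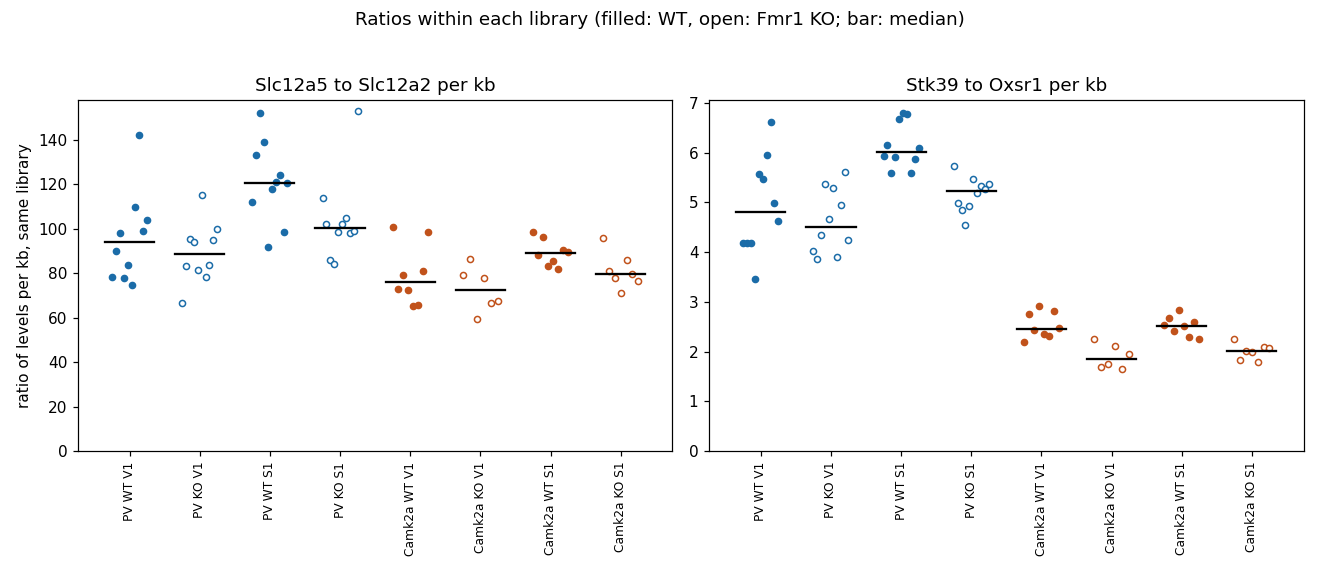
Ratio of levels per kb within each library (y axes, from 0) for Slc12a5 to Slc12a2 (left) and Stk39 to Oxsr1 (right) in the 8 groups (x axis); filled points are WT, open points Fmr1 KO, bars are medians. All PV libraries lie at or above 3.45 and all Camk2a libraries at or below 2.91 in the right panel.

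Between genotypes, Oxsr1 was called higher in Camk2a KO libraries, and the other 7 members were called in no comparison. Of the 8 members, none was called in PV V1, where 0.191% of all genes were called, and none in PV S1 (0.770% of all genes). In Camk2a neurons 1 of 8 was called in V1 (1.40% of all genes, 0.620% higher) and 1 of 8 in S1 (4.09% of all genes, 1.99% higher). In the comparisons that sum the areas of an animal, 0 of 8 was called in PV (1.36% of all genes) and 1 of 8 in Camk2a (4.11% of all genes). Before adjustment, 1, 5, 2 and 4 members had a p under 0.05 in PV V1, PV S1, Camk2a V1 and Camk2a S1. The share of all genes with an unadjusted p under 0.05 was not computed. Such counts, here and below, therefore have no background and are not read as an effect on the members. DESeq2 called 1 member in PV S1 and none in PV V1 or in PV over both areas. The median log2 fold change of the members was 0.01, -0.04, 0.08 and 0.13 in that order, and over all genes it was -0.00, 0.01, -0.00 and -0.00.

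Oxsr1 separated the genotypes in Camk2a S1. There the 7 KO libraries held 39.3, 50.9, 41.2, 40.7, 42.4, 39.8 and 40.4 CPM (animals C3, C4, C5, C6, C7, C12 and C14), and the 8 WT libraries ran from 31.2 through a median of 34.2 to 36.1 CPM. Every KO library lay above every WT library, which was so for 1.66% of all genes in either direction. That is a log2 fold change of 0.29 in S1 (SE 0.057; edgeR, adjusted p = 0.0100), about 1.23-fold. Animal C4 was the highest KO library, and without it the value was 0.25 (adjusted p = 0.00530).

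In V1 the rise of Oxsr1 was of similar size and less secure. The 6 KO libraries ran from 34.0 through a median of 40.2 to 45.0 CPM and the 8 WT libraries from 29.5 through 33.7 to 34.5 CPM. Animal C6 was the KO library inside the WT range, and 6 of 6 lay above the WT mean. KO exceeded WT by 0.28 on the log2 scale (SE 0.065, adjusted p = 0.0450). The call was lost on leaving out any 1 of 11 of the 14 libraries, all but C6, C14 and C24 (adjusted p from 0.0143 to 0.132 over the 14). It was lost without the filter on low counts (0.0517), and without C3, C18 and C19 it was 0.29 (adjusted p = 0.148).

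Over both areas, each animal counted once, Oxsr1 ran from 37.3 through 40.5 to 48.0 CPM in 6 KO animals and from 30.4 through 33.5 to 34.9 CPM in 7 WT animals. The groups did not overlap, though the share of all genes without overlap was not computed for this comparison. The log2 fold change was 0.30 (SE 0.056, adjusted p = 0.0117). Genes called higher made up 2.05% of those tested. Without C3, C18 and C19 Oxsr1 was still called, with an adjusted p of 0.0406, the highest over the alternatives tried. In the fits most PV interneuron markers had negative values in Camk2a KO against WT, with 0 of 12 called. Their median log2 fold change was -1.11 in V1, -0.81 in S1 and -1.06 over both areas, with 0, 1 and 1 positive. The median summed level of these markers differed little, at 313 CPM in KO and 336 CPM in WT V1, and 444 and 431 CPM in S1. The highest sums were 733 CPM in KO and 1454 CPM in WT V1, and 1409.6 and 1863 CPM in S1. Of the animals with more PV marker RNA, C18 and C19 were WT and C3 was KO. The part of PV RNA in the Oxsr1 difference was not tested. Astrocyte markers summed to 111 to 156 CPM in Camk2a KO S1 and 155 to 196 CPM in WT S1, and oligodendrocyte markers to 225 to 342 CPM and 308 to 499.8 CPM. Taken singly in S1, 3 of 10 astrocyte markers were positive in KO (median log2 fold change -0.04) and 1 was called lower. For oligodendrocyte markers 1 of 10 was positive (median -0.24) and 1 was called lower. In Camk2a V1, 6 of 10 astrocyte markers were positive (median 0.10) and 2 were called lower. With the glial score in the fit, Oxsr1 stayed called in S1 and over both areas and was not called in V1 (0.28, adjusted p = 0.0558).

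In PV libraries Oxsr1 had the same sign and was not called. PV S1 KO libraries ran from 26.2 through 28.4 to 30.3 CPM and WT libraries from 23.9 through 25.4 to 28.1 CPM, with 10 of 10 KO libraries above the WT mean. The log2 fold change was 0.15 (SE 0.044, adjusted p = 0.129), and DESeq2 gave an adjusted p of 0.0489. In V1 it was 0.09 (SE 0.069, adjusted p = 0.832). The class by genotype term was -0.18 (SE 0.074, adjusted p = 0.300), so a different effect in PV and Camk2a was not shown.

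For the transporters, Slc12a5 was not called in any genotype comparison. In PV the KO value was -0.02 on the log2 scale (SE 0.052) for V1 and -0.11 (SE 0.053, adjusted p = 0.399) for S1. In Camk2a it was 0.02 (SE 0.075) for V1 and 0.10 (SE 0.079) for S1. In PV S1, 9 of 10 KO libraries lay below the WT mean, with KO at 834 to 1154 CPM and WT at 965 to 1288 CPM. Slc12a2 was positive in all 4, at 0.06 (SE 0.085), 0.11 (SE 0.076), 0.14 (SE 0.096) and 0.26 (SE 0.096). The last, in Camk2a S1, compared 15.5 to 25.7 CPM in KO with 13.9 to 18.0 CPM in WT and had an adjusted p of 0.126.

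Among the WNK kinases, Wnk2 had opposite signs in the classes. In PV it was -0.13 (SE 0.059, adjusted p = 0.605) in V1 and -0.14 (SE 0.059, adjusted p = 0.338) in S1, with 9 of 10 KO libraries below the WT mean in each area. In Camk2a it was 0.14 (SE 0.070, adjusted p = 0.298) in V1 and 0.16 (SE 0.062, adjusted p = 0.147) in S1. Wnk1 lay between -0.11 and 0.03 and Wnk3 between 0.01 and 0.24 over the 4 comparisons, none called. Wnk3 in Camk2a S1 (0.24, SE 0.095, adjusted p = 0.159) compared 27.6 to 40.6 CPM in KO with 20.7 to 31.2 CPM in WT.

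Stk39 and Clcn2 were not called either. For Stk39 the PV values were 0.02 (SE 0.071) in V1 and -0.10 in S1 (SE 0.041, adjusted p = 0.297). Its Camk2a values were -0.14 in V1 (SE 0.055, adjusted p = 0.198) and -0.04 (SE 0.051) in S1. Clcn2, the most variable member in PV V1 with a coefficient of variation of 25.6% in WT, was 0.09 (SE 0.14), 0.16 (SE 0.074), 0.10 (SE 0.12) and -0.00 (SE 0.070) in the same order. The class by genotype term called no member and 0.832% of all genes; 2 members had an unadjusted p under 0.05. Whether the genotype effect differed between areas was tested in each class with edgeR, which called 0 of all genes; DESeq2 called 0 in PV and 1 in Camk2a, which was no member, and in both tools no member had an unadjusted p under 0.05. These tests took the V1 and S1 libraries of an animal as separate samples. With the animal as a block, a fit added after seeing the data, edgeR again called 0 genes in each class, and 0 members in PV and 2 in Camk2a had an unadjusted p under 0.05.

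**Figure D4:**
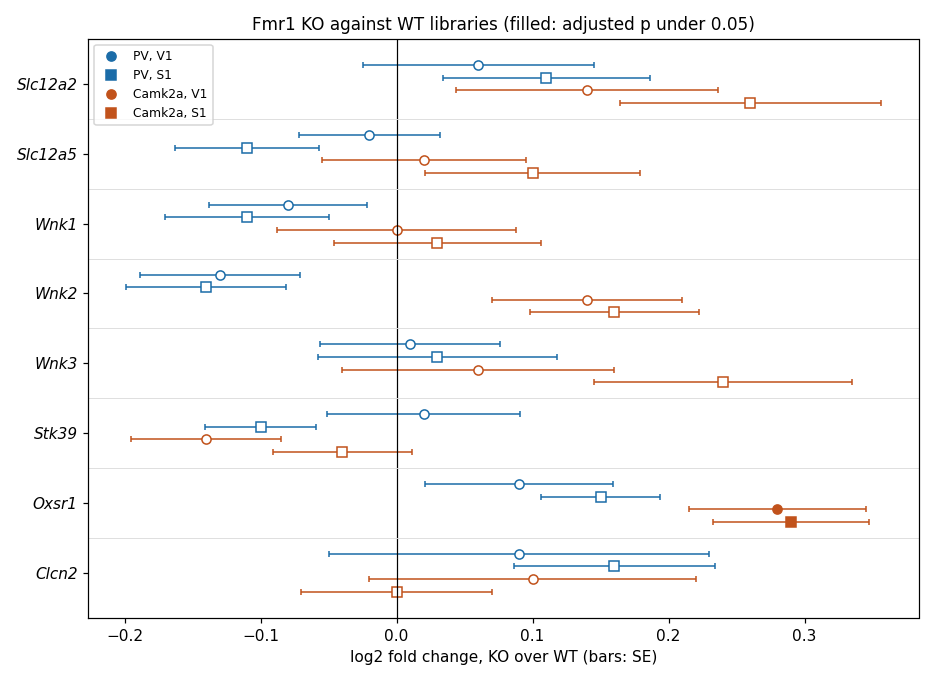
Log2 fold change of Fmr1 KO over WT (x axis) for the 8 genes (y axis) in PV (blue) and Camk2a (orange) libraries of V1 (circles) and S1 (squares); bars are standard errors and filled symbols have an adjusted p under 0.05. Filled symbols appear for Oxsr1 in Camk2a V1 (0.28) and Camk2a S1 (0.29); Wnk2 lies left of 0 in PV and right of 0 in Camk2a, unfilled.

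Between areas, Stk39 was lower in V1 than in S1 in PV WT mice. It ran from 98.7 through 115 to 159.6 CPM in V1 and from 129 through 147 to 156 CPM in S1. Animal P22 gave the highest V1 value and, at 129 CPM, the lowest S1 value; the other V1 libraries lay at or below 125 CPM. V1 minus S1 was -0.31 on the log2 scale (SE 0.059, adjusted p = 0.00585), and -0.38 without P9, P22 and P24. Slc12a5 was called too, at -0.14 (SE 0.050, adjusted p = 0.0477), from 876 to 1074 CPM in V1 and 965 to 1288 CPM in S1, and this call was lost with RLE size factors (adjusted p = 0.0531). Without P9, P22 and P24 it was -0.17 (adjusted p = 0.0127). So 2 of 8 members were called in PV WT, both lower in V1, where 20.6% of all genes were called, 9.95% lower. The area fits took the V1 and S1 libraries of an animal as separate samples unless a block is named. With the animal as a block, edgeR also called 2 members in PV WT, both lower in V1.

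The other area comparisons called no member with edgeR, with 2 members at an unadjusted p under 0.05 in PV KO, 1 in Camk2a WT and 1 in Camk2a KO; DESeq2 called 1, 1 and 0. In PV KO (7.56% of all genes called) Stk39 was -0.18 (SE 0.057, adjusted p = 0.0562), and without P9, P22 and P24 it was -0.26 (adjusted p = 9.72e-04). With the animal as a block, edgeR called 0 of all genes in PV KO. In Camk2a KO (13.1% of all genes) Stk39 was -0.14 (SE 0.052, adjusted p = 0.0938), and -0.15 with the animal as a block (adjusted p = 0.0290). In Camk2a WT (0.359% of all genes) Slc12a2 was higher in V1 in 8 of 8 libraries against the S1 mean, from 16.6 to 23.6 CPM against 13.9 to 18.0 CPM. Its log2 fold change was 0.28 (SE 0.077, adjusted p = 0.0663). DESeq2 gave an adjusted p of 0.0168. Without C24, the animal with the single library labelled Batch 2, it was 0.32 (adjusted p = 0.00876), and without C3, C18 and C19 0.23 (adjusted p = 0.318). Slc12a2 was positive in PV WT (0.21) and PV KO (0.17) as well, not called, and in PV WT without P9, P22 and P24 it was 0.23 (adjusted p = 0.0332).

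Markers of neurons, glia and vessels differed between areas in PV WT libraries beside these values. Of 10 excitatory markers 7 were called higher in V1, and their sum was 1103 to 1915 CPM in V1 and 1041 to 1351 CPM in S1. Of 12 PV interneuron markers 6 were called lower in V1 and 2 higher, with a sum of 9073 to 12011 CPM in V1 and 10854 to 12331 CPM in S1. Astrocyte markers were called higher for 7 of 10, and microglial and vascular markers for 4 of 10 each. Of 5 oligodendrocyte precursor markers 4 were called higher in V1, and their sum was 11.3 to 33.6 CPM in V1 and 11.5 to 22.0 CPM in S1. Within groups, over 69 libraries that share batches and dissection, Stk39 had a correlation of -0.74 with the precursor markers, -0.67 with the vascular markers, -0.65 with the microglial markers and -0.47 with the excitatory markers. Stk39 had -0.50 with the oligodendrocyte, -0.02 with the astrocyte and 0.29 with the PV interneuron markers. Clcn2 had a correlation of 0.57 with the vascular and 0.50 with the oligodendrocyte markers. For Slc12a2 it was 0.45 with the precursor and 0.43 with the excitatory markers, and for Slc12a5 -0.31 with the vascular markers. Most of these values are named for being large, and correlations of other genes with these markers were not computed. The part of these markers in the area differences was not tested.

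Some members also varied together inside groups. Over the same 69 libraries, after removing group means, 21 of 28 pairs of members had a positive correlation and 7 a negative one. The share of positive pairs among all genes was not computed, so this count has no background. The libraries were not independent, since 32 animals gave a library of each area. Wnk1 had a correlation of 0.75 with Wnk3 and 0.72 with Wnk2. Clcn2 had -0.44 with Wnk3, -0.37 with Stk39, -0.31 with Wnk2 and -0.29 with Wnk1, and Stk39 had -0.35 with Slc12a2 and -0.06 with Oxsr1. Slc12a2 and Slc12a5, which move chloride in opposite directions, had 0.11. By Pearson correlation of log2(CPM + 1) over all 69 libraries, among 10648 genes with a mean of at least 5 CPM, Slc12a2 was most like Klhl24 (0.89), Zfp26 (0.88) and Tut4 (0.87). Slc12a5 was most like Rpa1 (0.77), Prrt3 (0.76) and Ipo7 (0.76).

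The wider chloride list held 43 genes of the table, from other cation-chloride cotransporters and WNK regulators to volume-regulated and calcium-activated channels. Between classes in WT V1, 20 were called higher and 16 lower in PV of 42 tested, and in WT S1 20 higher and 17 lower of 42. In KO V1 it was 20 and 13 of 41, and in KO S1 18 and 18 of 41. Beside each of these stand the shares of all genes given above.

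Wnk4, the fourth WNK kinase, was far higher in PV than in Camk2a libraries. It ran from 6.83 through 8.25 to 12.5 CPM in PV WT V1 and from 0.139 through 0.399 to 1.10 CPM in Camk2a WT V1. The ranges were far apart, with a log2 difference of 4.18 (SE 0.29, adjusted p = 1.64e-10) in WT V1, 3.48 (SE 0.21) in WT S1, 3.55 (SE 0.38) in KO V1 and 4.16 (SE 0.23) in KO S1. The highest Camk2a values were in the animals with more PV marker RNA, at 2.26 CPM in C19 and 1.65 CPM in C18 in WT S1 and 1.39 CPM in C3 in KO V1. Without these animals the WT V1 difference was 4.72 (adjusted p = 9.96e-13). The lowest Camk2a library held an estimated count of 2, so the Camk2a level is poorly fixed. Klhl2 and Klhl3, adaptors of the Cullin 3 ligase that marks WNK kinases for degradation, were lower in PV. Klhl2 ran from 35.3 to 47.6 CPM in PV WT V1 and from 182 to 238 CPM in Camk2a WT V1, and PV minus Camk2a was -2.28 on the log2 scale (SE 0.069, adjusted p = 2.80e-16). Klhl3 had -1.70 (SE 0.090).

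Other listed genes separated the classes too. Lrrc8a, the essential subunit of volume-regulated anion channels, was higher in PV (111 ± 9.91 CPM against 56.1 ± 4.72, SD, n = 10 and 8, WT V1; log2 fold change 0.99). Neto2, an auxiliary protein that binds KCC2 and kainate receptors, was higher in PV KO V1 (2.12) and KO S1 (2.47). Its mean level was 184 CPM in PV KO V1 and 218 CPM in PV KO S1. It was 186 CPM in PV WT V1 and 256 CPM in PV WT S1. Slc4a3, an anion exchanger, was higher at 0.95 in WT S1 and KO S1, and Car2, a carbonic anhydrase, at 2.34 in WT S1. Ano6, a scramblase and channel, was higher at 1.21 in WT V1, and Clcn5, an endosomal chloride-proton exchanger, at 1.25 in KO V1. Lower in PV were Ppp1ca, a catalytic subunit of protein phosphatase 1 (-0.97 in WT V1 and in WT S1), and Ttyh1, a tweety family membrane protein (-1.19 in WT S1, -1.09 in KO V1 and -1.23 in KO S1).

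**Figure D5:**
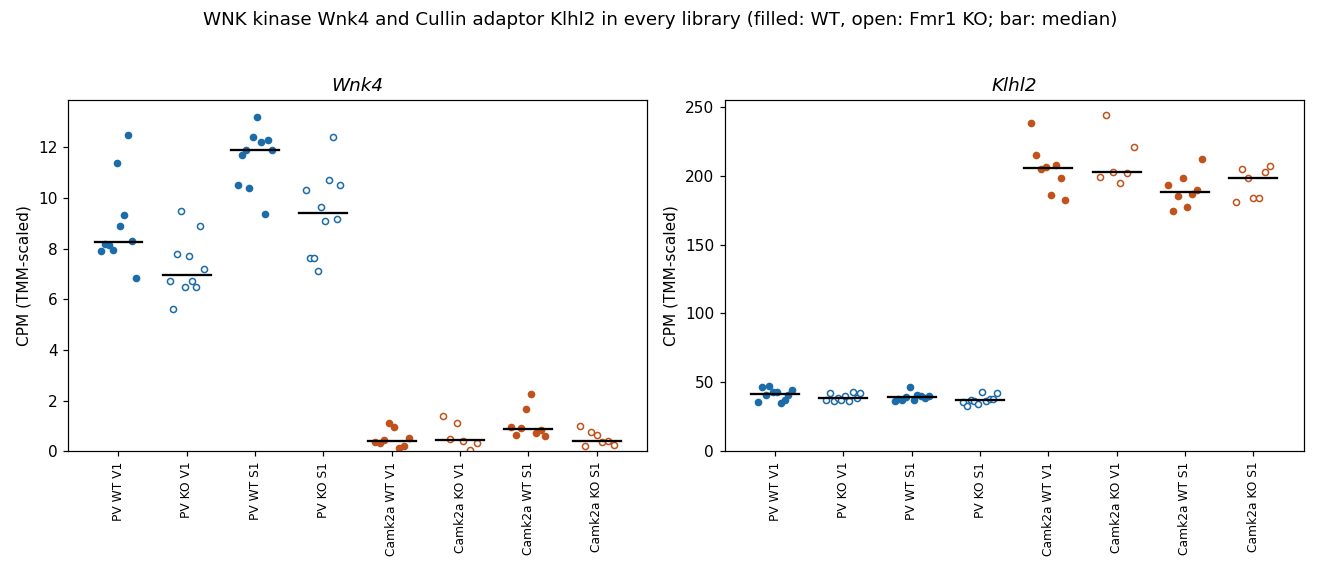
Levels of Wnk4 (left) and Klhl2 (right) in every library of the 8 groups (y axes, CPM after TMM scaling, from 0); filled points are WT, open points Fmr1 KO, bars are medians. The highest Camk2a library of Wnk4 reached 2.26 CPM and the lowest PV library 5.62 CPM; Klhl2 is reversed, with PV libraries up to 47.6 CPM and Camk2a libraries from 174 CPM.

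Between genotypes, no listed gene was called in any single area, in either class. Over both areas Wnk4 was called lower in PV KO, the single call among 40 tested, where 1.36% of all genes were called. It ran from 6.63 through 8.51 to 9.45 CPM in 9 KO animals and from 9.19 through 10.2 to 11.9 CPM in 10 WT animals, with 9 of 9 KO animals below the WT mean. KO minus WT was -0.27 on the log2 scale (SE 0.064, adjusted p = 0.0365). The call was lost on leaving out any 1 of 10 of the 19 animals (P2, P5, P6, P9, P10, P11, P18, P21, P22 and P26; adjusted p from 0.0218 to 0.0820 over all 19), and the adjusted p was 0.135 without P9, P22 and P24 and 0.0810 with limma-voom.

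In Camk2a over both areas, 4 of 42 listed genes were called higher and 1 lower in KO, where 4.11% of all genes were called, 2.05% higher. Clcn7, a lysosomal chloride-proton exchanger, was higher by 0.20 (SE 0.047, adjusted p = 0.0304). Slc12a9, a distant relative of the cotransporters, was higher by 0.36 (SE 0.085, adjusted p = 0.0324), and Car7, the neuronal carbonic anhydrase, by 0.25 (SE 0.061, adjusted p = 0.0357). Ttyh2, a relative of Ttyh1, fell by 0.48 (SE 0.13, adjusted p = 0.0481). The 3 named as higher and Ttyh2 lost their call without C3, C18 and C19 (adjusted p = 0.123, 0.0963, 0.148 and 0.128), and on leaving out 9 or 10 of the 13 animals singly. Ttyh2 was also lost without the filter (0.0514) and with the glial score (0.0623).

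Between areas, 2 listed genes were called higher and 6 lower in V1 of 39 in PV WT, where 20.6% of all genes were called. In PV KO 1 was higher and 1 lower (7.56% of all genes), in Camk2a WT none was called (0.359%), and in Camk2a KO 2 were higher and 5 lower of 42 (13.1%). Wnk4 was lower in V1 in PV WT (-0.37, SE 0.092, adjusted p = 0.0107) and PV KO (-0.36, SE 0.10, adjusted p = 0.0395), the latter not called with the animal as a block (-0.40, adjusted p = 0.0732). Without P9, P22 and P24 it was -0.47 in PV WT and -0.51 in PV KO. Slc4a10, a sodium-dependent bicarbonate transporter, was higher in V1 in PV WT (0.32, adjusted p = 0.00603) and PV KO (0.28, adjusted p = 0.0496), the latter lost with that block (0.27, adjusted p = 0.0706), with RLE size factors (0.0511) and without the filter (0.0553). Without P9, P22 and P24 it was 0.35 in PV WT and 0.37 in PV KO. In PV WT Prkcd, a protein kinase C, was higher (1.04, SE 0.25) and Neto2 (-0.46) and Ckb, the brain creatine kinase that binds KCC2 (-0.34), were lower. Without those animals they were 1.09, -0.59 and -0.40. Prkcd was at a low level, with 1.39 ± 0.541 CPM in V1 and 0.671 ± 0.247 CPM in S1 (SD). In Camk2a KO Slc4a3 (0.32) and Slc4a8 (0.25), bicarbonate and anion carriers, were higher, while Ckb (-0.34), Lrrc8b (-0.46) and the cotransporter Slc12a4 (-0.48) were lower; Slc12a4 was lost without the sex term (adjusted p = 0.0718).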

How the data were processed

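The 69 libraries are immunoprecipitated RiboTag RNA. Per the labels' protocols, the Ovation RNA-Seq System V2 kit was used, without molecular identifiers, and both ends were read for 100 bases. The authors deposited 1 table of estimated counts per gene, not normalized; 71.1% of the values are fractional. The submitters' processing notes name STAR, Salmon, limma and mm10; roles, versions and strand setting are not given in the sources used here. Library totals ran from 27.64 to 49.11 M (median 38.77 M). Errors given are between animals, except that V1 against S1 and area by genotype fits took the libraries of an animal as separate samples.

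Estimated counts were rounded. Genes were filtered with filterByExpr, scaled by TMM and tested with edgeR 4.0.16 (R 4.3.3; robust quasi-likelihood fit, sex as covariate, Benjamini-Hochberg). Each fit used only the groups compared; both-area and class by genotype tests summed an animal's libraries. Alternatives were RLE size factors, DESeq2 1.42.0, no filter, no sex term, a glial score (genotype comparisons), leaving out named animals or each library, the animal as a block and limma-voom (limma 3.58.1). Fits were tested on simulated data. Standard errors are the log2 fold change over the square root of F. Identifiers were matched to GENCODE M21 (17614 of 17634 named), and levels per kb use merged exons.

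Groups and animal codes come from the labels. V1 and S1 libraries of 32 animals share a code, taken as the animal. Their deviations from group means had correlations of -0.23 to 0.86 (median 0.46, 27 of 32 above 0.1). Pairs of other animals of the same class and genotype had -0.55 to 0.68 (median -0.09, 66 of 234 above 0.1). Deviations from a group mean sum to 0, which by itself lowers the values for other animals. No pair of libraries in a group agreed within counting noise (lowest chi-square per degree of freedom 4.35).

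All 8 members were named throughout, with Fmr1; of the wider list, up to 3 called genes per direction and comparison by smallest p; and the 3 genes most like Slc12a2 and Slc12a5. Members and lists were chosen with earlier results of these data known.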

Additional observations from a re-analysis of the deposited data

Results flagged for a closer look

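Each member was checked in each group for a library far from the others by Dixon's ratio of the gap to the range, 64 checks in all, of which 6 passed; chance passes about 1 in 20. Camk2a KO S1 animal C4 was highest for 3 members: Slc12a5 at 1415 CPM (next 1080.2), Wnk3 at 40.6 CPM (next 32.0) and Oxsr1 at 50.9 CPM (next 42.4). Its TMM factor was 0.875, against 0.948 to 0.980 in the other Camk2a KO S1 libraries. PV WT S1 animal P3 was highest for Slc12a5 at 1288 CPM (next 1122). PV WT V1 animal P22 was highest for Stk39 at 159.6 CPM (next 125), and its V1 library scored on the S1 side of the area genes. Camk2a WT S1 animal C2 was highest for Clcn2 at 42.1 CPM (next 38.7).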

How the results depend on the processing

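Over settings other than leaving out 1 library, the number of members called was the same within 1.5 times for 99 values and moved for 11. The tolerance took in 1 change, PV WT between areas without P9, P22 and P24, with 3 members called (1 higher, 2 lower) against 2. In PV S1 between genotypes DESeq2 called 1. In Camk2a V1 between genotypes no filter, the glial score and leaving out C3, C18 and C19 each called 0, and leaving out 1 library called 0 or 1. Between areas, RLE size factors called 1 in PV WT; DESeq2, no sex term and leaving out P9, P22 and P24 each called 1 in PV KO; DESeq2 (Slc12a2, adjusted p = 0.0168) and leaving out C24 each called 1 in Camk2a WT; and the replicate block called 1 in Camk2a KO. Class comparisons gave the same number of members called in each direction under every setting run.

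Values that changed sign were near 0 and uncalled. Clcn2 in Camk2a S1 between genotypes was 0.0017 without the filter and 0.04 with the glial score, which gave Wnk1 -0.00093 there and -0.0066 over both areas. The area by genotype difference was 0.03 for Wnk3 in PV without P9, P22 and P24, -0.0082 for Wnk2 in PV with the replicate block, and 0.0022 for Oxsr1 in Camk2a without C24. Between areas, Wnk3 was -0.0019 in PV WT without P9, P22 and P24 and -0.0043 in PV KO with the replicate block; Clcn2 was 0.04 in Camk2a WT without C3, C18 and C19; Slc12a5 in Camk2a KO was -0.0023 without the sex term and -0.02 with the block. Over single leave-outs (without 1 library or animal), genotype values that took both signs ran from -0.02 to 0.05 (Wnk3, PV V1), -0.02 to 0.07 (Stk39, PV V1), -0.04 to 0.0014 (Slc12a5, PV V1), -0.02 to 0.07 (Wnk3, PV S1), -0.05 to 0.07 (Wnk1, Camk2a V1), -0.04 to 0.06 (Slc12a5, Camk2a V1), -0.05 to 0.05 (Clcn2, Camk2a S1), -0.03 to 0.06 (Wnk1, Camk2a S1), -0.02 to 0.06 (Wnk3, PV both areas) and -0.04 to 0.07 (Wnk1, Camk2a both areas). The causes of these changes were not tested.

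Counts of all genes called moved more. Settings other than single leave-outs gave 31 to 119 for PV V1 (31 as reported), 81 to 308 for PV S1 (122), 15 to 870 for Camk2a V1 (222), 299 to 1634 for Camk2a S1 (641), 81 to 469 for PV both areas (234), 131 to 1731 for Camk2a both areas (688) and 74 to 268 for the class by genotype difference (146). Single leave-outs gave 20 to 56, 80 to 177, 28 to 474, 253 to 1634, 144 to 255 and 235 to 1347 for the first 6. Between areas, settings other than single leave-outs gave 2744 to 5060 (3291), 0 to 3479 (1218), 0 to 3405 (56) and 1666 to 3276 (2058) for PV WT, PV KO, Camk2a WT and Camk2a KO, the 0 in PV KO under the replicate block. Other than the changes printed here and beside the results, the block changed no call of a named gene. Replacing merged exons by the longest transcript moved all 64 levels per kb by more than 1 SD, and library totals in place of TMM-scaled totals moved none of the 64.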
